A study of Rattus norvegicus with 6 samples.

Results

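The 8 Toll-like receptor genes Tlr2 to Tlr9, the co-receptor gene Cd14 and the adaptor gene Myd88 were examined in rat kidney RNA, 10 genes of the 17051 listed in the files. They were chosen by name, as the receptors of this family with their shared adaptor, and not by a measured value. Whole kidney tissue of 6 male Sprague Dawley rats was sequenced, with a separate poly(A)-selected library for each rat. The AL group (rats 61, 71 and 88) received standard chow without restriction, labelled the normal diet, and the HD group (rats 64, 67 and 69) received a chow enriched with an amino acid mixture, labelled the hyperammonemic diet. Both diets were given for a week, and the comparison addresses the kidney under a diet that was meant to raise its ammonia production. The rats of the 2 groups are different animals, with no agent or deletion that separates the groups beyond the diet. The ages of the rats were not used here. By the study's methods, the rats had surgery under isoflurane after the diet. Catheters were placed in the jugular vein and ureter, para-aminohippuric acid was infused, and blood and urine were collected.

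Toll-like receptors are membrane proteins that recognize molecular patterns of microbes and of damaged cells. Tlr2, Tlr4, Tlr5 and Tlr6 sit at the cell surface and bind bacterial lipoproteins, lipopolysaccharide and flagellin, whereas Tlr3, Tlr7, Tlr8 and Tlr9 sit in endosomes and bind nucleic acids. All of them except Tlr3 signal through the adaptor Myd88 to NF-κB and MAP kinases, and the nucleic acid sensors also induce interferons. In the kidney, receptors of this family are known from resident macrophages and dendritic cells, and some of them also from tubular epithelium and endothelium.

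Estimated counts summed to between 12499945 and 30466461 per rat, and levels are given as CPM (counts scaled to the library total) after TMM normalization, which adjusts for the composition of each library. The tissue label was met by its markers, since the tubular genes Umod, Lrp2 and Aqp2 had at least 185 TPM (transcript counts scaled to length and library) in every rat and the podocyte gene Nphs1 had between 2.38 and 20.5 TPM. Rat 71 of the AL group stood apart in the genes described here, as the highest rat in 6 of the 8 tested members, beside 18.0% of all tested genes, and the fold changes of the tested members are therefore given with and without it. In the files of genome build rn5, each of the 10 genes had 1 transcript, and none of these overlapped another listed transcript. The values cover all exons of a transcript, between 1 exon for Tlr5 and 7 exons for Tlr3. The diets were compared by edgeR's quasi-likelihood test, with *P* values adjusted by Benjamini-Hochberg over the 11553 tested genes. An adjusted *P* value of 0.05 was passed by 0 of them in edgeR, while 1224 had an unadjusted *P* value under 0.05 and 182 passed the adjusted threshold with DESeq2. No gene named below passed the adjusted threshold in edgeR.

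In build rn5, the surface receptor genes lie apart from each other, Tlr2 at chr2:202253256-202258683 on the - strand, Tlr4 at chr5:86690670-86704302, Tlr5 at chr13:106310984-106315238 and Tlr6 at chr14:44835326-44850999, the last 3 on the + strand. Of the endosomal receptor genes, Tlr7 at chrX:28883041-28908313 and Tlr8 at chrX:28932434-28955156 are neighbors on the + strand, while Tlr3 lies at chr16:49739814-49753271 and Tlr9 at chr8:114279023-114283069, also on the + strand. Cd14 lies at chr18:29265351-29266946 and Myd88 at chr8:127229273-127233342, both on the - strand.

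The promoters of 4 genes are shown because the values of these genes span the range of differences in the data, with Tlr7 and Tlr8 differing most between the diets, Tlr2 turning on a single rat and Myd88 differing least. Each run gives the 250 bases before the RefSeq start of the gene, on the strand of the gene in build GRCr8, and all 10 genes were found in the RefSeq table. Capitals mark matches to GAGGAA, the core of PU.1 sites, to the NF-κB consensus or to the interferon-stimulated response element (ISRE), GAAA and GAAA with any 2 bases between them. PU.1 is a transcription factor of myeloid cells, NF-κB is a factor that the receptors activate, and the ISRE is bound by interferon regulatory factors.
Tlr7 (chrX:30644176-30644425, + strand): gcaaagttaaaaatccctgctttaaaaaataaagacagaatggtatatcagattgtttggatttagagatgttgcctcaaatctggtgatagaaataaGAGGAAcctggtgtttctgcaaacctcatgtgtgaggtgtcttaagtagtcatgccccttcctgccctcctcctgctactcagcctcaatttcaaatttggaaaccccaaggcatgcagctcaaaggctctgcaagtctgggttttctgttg
Tlr8 (chrX:30708476-30708725, + strand): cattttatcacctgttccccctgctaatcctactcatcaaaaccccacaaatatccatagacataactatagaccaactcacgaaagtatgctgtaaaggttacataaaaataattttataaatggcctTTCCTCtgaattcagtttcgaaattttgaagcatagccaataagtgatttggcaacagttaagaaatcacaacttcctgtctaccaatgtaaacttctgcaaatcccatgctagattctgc
Tlr2 (chr2:171504558-171504807, - strand): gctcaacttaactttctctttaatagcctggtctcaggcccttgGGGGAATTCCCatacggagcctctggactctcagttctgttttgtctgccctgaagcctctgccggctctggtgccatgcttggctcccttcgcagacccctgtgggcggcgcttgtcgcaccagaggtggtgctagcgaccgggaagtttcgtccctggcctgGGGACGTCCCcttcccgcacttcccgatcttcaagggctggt
Myd88 (chr8:127956231-127956480, - strand): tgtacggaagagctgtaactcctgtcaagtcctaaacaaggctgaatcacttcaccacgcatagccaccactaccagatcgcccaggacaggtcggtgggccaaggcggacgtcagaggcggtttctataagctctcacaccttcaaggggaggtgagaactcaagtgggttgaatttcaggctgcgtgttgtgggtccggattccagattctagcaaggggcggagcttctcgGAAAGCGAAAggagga
Both strands were searched, and no match of one motif overlapped that of another. The Tlr7 window held GAGGAA at 152 bases before the start, and the Tlr8 window held it on the opposite strand, printed as TTCCTC, at 121 bases. The Tlr2 window held 2 NF-κB stretches, at 206 and 42 bases, and the Myd88 window held the ISRE at 16 bases before the start. GAGGAA was found in the windows of 7 of the 10 genes (all but Tlr2, Tlr5 and Myd88) and in 23.3% of 33469 promoters of the same length. The NF-κB consensus was found in 1 of the 10 and in 6.33% of all promoters, and the ISRE in 1 of the 10 and in 3.41%. A match describes these letters only and is no measured site.

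Between genes, levels can be compared only per length, for which the TPM values were summed per gene. Myd88 had the highest level, with a mean of 19.2 TPM over the 6 rats, followed by Tlr3 with 10.1 TPM, Tlr6 with 9.86 TPM and Cd14 with 4.58 TPM. Tlr3 was between 7.42 and 14.7 TPM and Tlr6 between 8.08 and 11.8 TPM, so these neighbors did not differ beyond their spread over rats. The other receptors had less, with means of 1.17 TPM for Tlr2, 0.608 TPM for Tlr4, 0.553 TPM for Tlr7, 0.377 TPM for Tlr8, 0.195 TPM for Tlr5 and 0.100 TPM for Tlr9. The ranges of Tlr2, Tlr4, Tlr7 and Tlr8 over the rats overlapped one another.

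The transcripts of these 8 receptors were thus mostly those of the double-stranded RNA receptor Tlr3 and the lipoprotein receptor subunit Tlr6. Tlr1, which is not among the 8, had between 1.78 and 3.73 TPM and is left out of the shares below. These 2 genes made up 92.5%, 76.7% and 86.2% of the summed TPM of the 8 receptors in AL rats 61, 71 and 88, and 92.9%, 92.7% and 88.3% in HD rats 64, 67 and 69. The sum itself was 21.8, 34.2 and 24.6 TPM in the AL rats and 17.4, 18.6 and 21.1 TPM in the HD rats, so that every AL rat was above every HD rat. Tlr7, Tlr8 and Tlr9 together contributed 2.16%, 8.98% and 6.72% in the AL rats and 1.49%, 1.24% and 2.37% in the HD rats. In that share AL rat 61 lay below HD rat 69, whereas AL rats 71 and 88 lay above all HD rats.

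**Figure D1:**
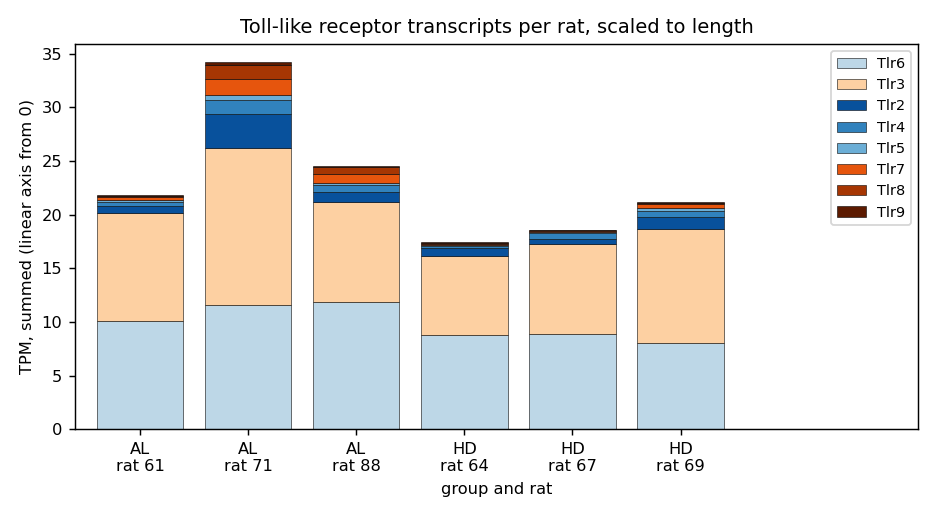
Stacked bars give the TPM of the 8 Toll-like receptor genes in each rat (linear axis from 0), with the AL rats on the left and the HD rats on the right. Tlr6 and Tlr3 fill between 76.7% and 92.9% of every bar, and the bar of AL rat 71 is the tallest with 34.2 TPM.

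Of the surface receptors, Tlr6, which pairs with Tlr2 to recognize diacylated lipoproteins, was the most abundant. It had 18.9, 18.1 and 19.9 CPM in AL rats 61, 71 and 88 and 16.0, 16.4 and 13.6 CPM in HD rats 64, 67 and 69. Every HD rat was below every AL rat, and the spread within each group was small (18.9 ± 0.892 CPM in AL and 15.3 ± 1.56 CPM in HD, SD, n = 3). The log2 fold change of HD against AL was -0.31 (SE 0.14, edgeR's quasi-likelihood test, adjusted *P* = 0.503) and -0.34 without rat 71. The counts of Tlr6 were not whole numbers, which also held for Tlr3, Cd14 and Myd88. Tlr6 is a close paralog of Tlr1, and RSEM can divide reads between such genes. The sum of both genes was 22.0, 23.1 and 22.6 CPM in the AL rats and 19.0, 19.3 and 17.0 CPM in the HD rats, again without overlap between the groups.

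Tlr2, the lipoprotein receptor that pairs with Tlr1 or Tlr6, differed mainly by a single rat. It had 1.11, 4.71 and 1.46 CPM in AL rats 61, 71 and 88 and 1.27, 0.899 and 1.82 CPM in HD rats 64, 67 and 69. Rat 71 was 3.67 times the mean of the other AL rats, and these other AL rats lay within the range of the HD group. HD against AL gave a log2 fold change of -0.86 (SE 0.61, edgeR, adjusted *P* = 0.676), and without rat 71 it turned to 0.06 (adjusted *P* = 0.989).

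Tlr4, the lipopolysaccharide receptor, had 0.953, 2.61 and 1.39 CPM in AL rats 61, 71 and 88 and 0.340, 1.25 and 1.12 CPM in HD rats 64, 67 and 69. The groups overlapped, rat 71 was the highest and HD rat 64 the lowest with a count of 4. This gave a log2 fold change of -0.83 (SE 0.58, edgeR, adjusted *P* = 0.675) and -0.34 without rat 71. Ly96 (MD-2), the protein that holds lipopolysaccharide on Tlr4, was not tested because its count reached 25 at most, and it lay between 0.397 and 0.926 CPM in the AL rats and between 0.400 and 0.799 CPM in the HD rats.

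Tlr5, the flagellin receptor, had counts of 5, 18 and 7 in the AL rats and 3, 5 and 25 in the HD rats, below the count of 30 in at least 1 rat that was needed for the test. Summed over the group, this was 0.678 CPM in AL (95% exact Poisson interval 0.458 to 0.969) and 0.515 in HD (0.355 to 0.724). The intervals overlap, they cover counting error only, and a difference in Tlr5 was not detectable at this depth. Without the count minimum, the log2 fold change was -0.43 (SE 0.65, edgeR, adjusted *P* = 0.861).

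**Figure D2:**
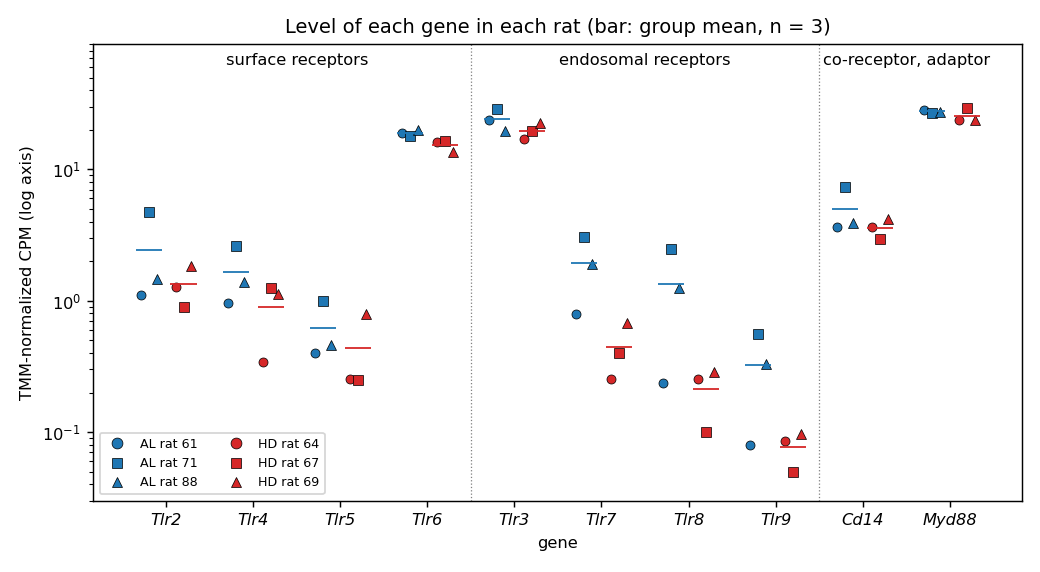
TMM-normalized CPM of each gene in each rat (log axis), in blue for the 3 AL rats and red for the 3 HD rats, with a horizontal bar at each group mean. The rats of the 2 groups are separate for Tlr6 and Tlr7, and the square of AL rat 71 is the highest of the blue points for Tlr2, Tlr4, Tlr5, Tlr3, Tlr7, Tlr8, Tlr9 and Cd14.

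The endosomal receptors were split between the abundant Tlr3 and the scarce Tlr7, Tlr8 and Tlr9. Tlr3, which binds double-stranded RNA and signals through Ticam1 (TRIF) in place of Myd88, had 23.9, 28.9 and 19.7 CPM in AL rats 61, 71 and 88. In HD rats 64, 67 and 69 it had 17.1, 19.6 and 22.3 CPM. The groups overlapped, with HD rat 69 above AL rat 88, and the log2 fold change was -0.29 (SE 0.18, edgeR, adjusted *P* = 0.633) and -0.14 without rat 71.

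Tlr7, a receptor of single-stranded RNA, had 0.794, 3.05 and 1.92 CPM in AL rats 61, 71 and 88 and 0.255, 0.400 and 0.671 CPM in HD rats 64, 67 and 69. All HD rats were below all AL rats, although AL rat 61 and HD rat 69 were close. The group levels were 1.92 ± 1.13 CPM in AL and 0.442 ± 0.212 CPM in HD (SD, n = 3). For Tlr7, the log2 fold change was -2.04 (SE 0.61, edgeR, unadjusted *P* = 0.0114, adjusted *P* = 0.404), and the adjusted *P* value was 0.140 with DESeq2. The value was -1.54 without rat 71 (edgeR, unadjusted *P* = 0.0539). The counts behind these levels were 10, 55 and 29 in AL and 3, 8 and 21 in HD, so that Tlr7 reached the count minimum through rat 71 alone.

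Tlr8, the neighboring gene on chromosome X and also a receptor of single-stranded RNA, had 0.238, 2.49 and 1.26 CPM in AL rats 61, 71 and 88. In HD rats 64, 67 and 69 it had 0.255, 0.0999 and 0.288 CPM. AL rats 71 and 88 were above every HD rat, whereas AL rat 61 with a count of 3 lay within the HD range. The log2 fold change was -2.61 (SE 0.86, edgeR, unadjusted *P* = 0.0179, adjusted *P* = 0.406) and -1.79 without rat 71 (unadjusted *P* = 0.0946), and the adjusted *P* value was 0.190 with DESeq2. Tlr8 also reached the count minimum through rat 71 alone, with a count of 45. Pooled over the group, Tlr8 had 67 counts in AL, 1.52 CPM (95% exact Poisson interval 1.17 to 1.92), and 14 counts in HD, 0.219 CPM (0.119 to 0.367). Without rat 71, the AL group had 22 counts and 0.792 CPM (0.497 to 1.20). These intervals cover counting error only.

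Tlr9, the receptor of unmethylated CpG DNA, was barely detected, with counts of 1, 10 and 5 in AL rats 61, 71 and 88 and 1, 1 and 3 in HD rats 64, 67 and 69. The pooled level was 0.362 CPM in AL (95% exact Poisson interval 0.207 to 0.588) and 0.0781 CPM in HD (0.0253 to 0.182). These intervals do not overlap but cover counting error only, they overlap without rat 71 (0.0793 to 0.470 in AL), and the groups overlapped rat by rat, with HD rats 64 and 69 above AL rat 61. In the fit without a count minimum, the log2 fold change was -1.99 (SE 0.83, edgeR, unadjusted *P* = 0.0430, adjusted *P* = 0.483), a fitted value that at such counts depends on the prior count of the tool.

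Cd14, the anchored co-receptor that passes lipopolysaccharide to Tlr4, had 3.65, 7.32 and 3.90 CPM in AL rats 61, 71 and 88 and 3.65, 2.95 and 4.16 CPM in HD rats 64, 67 and 69. Apart from rat 71, the AL rats lay within the range of the HD rats. With all rats, the log2 fold change was -0.47 (SE 0.34, edgeR, adjusted *P* = 0.690) and -0.07 without rat 71.

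Myd88, the adaptor that carries the signal of every receptor here but Tlr3, had 28.5, 26.7 and 27.5 CPM in the AL rats and 23.9, 29.3 and 23.6 CPM in the HD rats. The groups overlapped, since HD rat 67 was the highest of the 6 rats. The log2 fold change was -0.11 (SE 0.13, edgeR, adjusted *P* = 0.842), with a range from -0.22 to -0.04 when each rat was left out in turn. Rat 71, which was the highest in 8 of the 10 genes, was not raised in Myd88 (0.955 times the mean of the other AL rats) nor in Tlr6 (0.933 times).

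Of the 8 tested genes, 0 passed the adjusted threshold in edgeR, against 0.0% of all tested genes, and 0 with DESeq2, against 1.58%. Tlr7 and Tlr8 were the 2 genes with an unadjusted *P* value under 0.05, both lower in HD, beside 5.94% of all tested genes in that direction. Without rat 71 there were 0 such genes among the 8, beside 3.57%, and in the fit without a count minimum there were 3 among the 10 (Tlr7, Tlr8 and Tlr9), beside 5.61%. Tlr6 and Tlr7 were the 2 genes whose groups did not overlap with HD lower, beside 7.01% of all tested genes, and 0 did so with HD higher, beside 7.25%. All 8 log2 fold changes were below 0, beside 48.7% of all tested genes, with a median of -0.65 beside 0.0067 in the whole tested set. Without rat 71, 7 of the 8 were below 0, beside 49.7% of all tested genes, and the median was -0.24. Since Tlr7 and Tlr8 were tested only because of their counts in AL rat 71, this count and this median are descriptions of the genes that reached the minimum. Two-sided exact permutation tests over the 3 rats of each group gave *P* = 0.1 for Tlr6 and Tlr7, the smallest value possible, and between 0.2 and 0.6 for the other members. In bulk tissue, fewer cells of a type and less RNA per cell cannot be told apart.

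**Figure D3:**
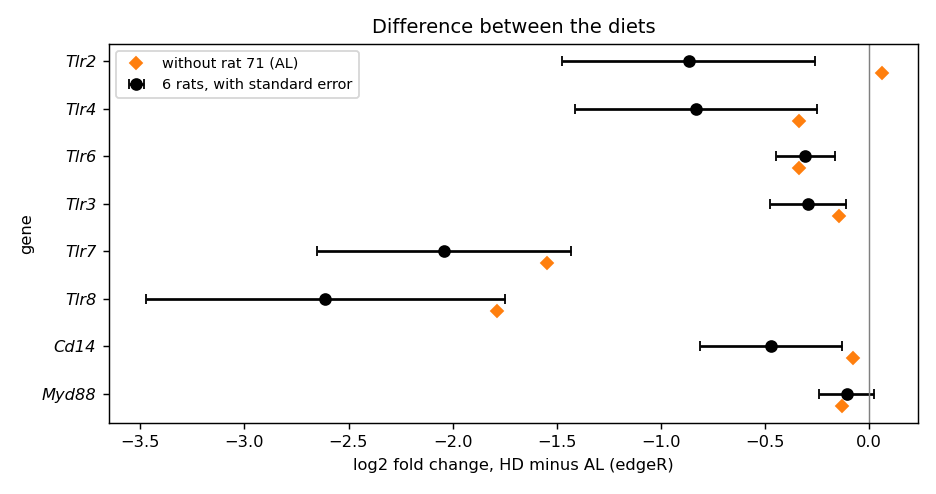
Log2 fold change of HD against AL in edgeR for the 8 tested genes, with black points and bars for the value over 6 rats and its standard error and orange diamonds for the value without AL rat 71. All black points are below 0, from -2.61 for Tlr8 to -0.11 for Myd88, and the diamond of Tlr2 is at 0.06.

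Surface and endosomal receptors were compared within each rat as the mean log2 (CPM + 0.5) of Tlr2, Tlr4 and Tlr6 minus that of Tlr3, Tlr7 and Tlr8. The difference was 0.32, -0.02 and -0.06 in AL rats 61, 71 and 88 and 0.43, 0.65 and 0.44 in HD rats 64, 67 and 69. The score was higher in every HD rat than in every AL rat, with means of 0.08 ± 0.21 in AL and 0.51 ± 0.12 in HD (SD, n = 3). Tlr7 and Tlr8 entered the score only through their counts in AL rat 71, in the group where they were high, so it describes these genes and supports no more than that. No test was made of it, because the genes were chosen by hand and weigh equally in it at very different levels. Its size depended on the pseudocount, with a difference between the groups of 0.43 at 0.5, 0.71 at 0.1 and 0.17 at 2. With all 8 receptors in the score the difference was 0.37.

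By class, the median log2 fold change was -0.83 for the tested surface receptors and -2.04 for the tested endosomal receptors, and -0.34 and -1.54 without rat 71, with the same limit on Tlr7 and Tlr8. Within the endosomal class, Tlr3 (-0.29) was closer to the surface receptor Tlr6 (-0.31) than to Tlr7 and Tlr8. In summed TPM, where Tlr3 and Tlr6 prevail, the endosomal share of the 8 receptors was 48.6%, 51.9% and 44.6% in the AL rats and 44.1%, 46.3% and 52.5% in the HD rats, which overlap. With Tlr3 and Tlr6 left out of the sum, the endosomal share was 28.8%, 38.6% and 48.5% in the AL rats and 21.1%, 17.0% and 20.2% in the HD rats. The groups were thus separate in the endosomal share with the abundant Tlr3 and Tlr6 left out and overlapped with them. Without Tlr3, the endosomal share holds only Tlr7, Tlr8 and Tlr9. The same limit applies to Tlr7 and Tlr8, and Tlr9 did not reach the count minimum. The share therefore restates the low counts of these genes in HD, and it was not tested.

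**Figure D4:**
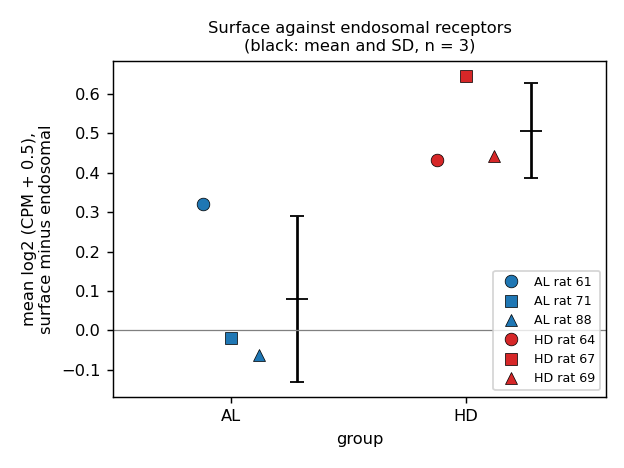
Mean log2 (CPM + 0.5) of the surface receptors Tlr2, Tlr4 and Tlr6 minus that of the endosomal receptors Tlr3, Tlr7 and Tlr8 for each rat of the AL and HD groups, with the mean and SD of each group in black. The HD rats lie between 0.43 and 0.65 and the AL rats between -0.06 and 0.32.

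Markers of macrophages and of T and NK lymphocytes were lower in HD along with Tlr7 and Tlr8. The summed level of the 22 macrophage and monocyte markers found in the files (of 25 listed) was between 192 and 625 CPM in the AL rats, highest in rat 71, and between 73.0 and 178 CPM in the HD rats. All 19 tested markers of this list were lower in HD, beside 48.7% of all tested genes, with a median log2 fold change of -1.42. Of them, 15 had an unadjusted *P* value under 0.05 in edgeR, beside 5.94% of all tested genes in that direction. Without rat 71 the median was -1.08, with 7 such markers, beside 3.57%. None of the markers was at 0. Csf1r, the receptor for the macrophage growth factor, had 16.6, 51.0 and 34.7 CPM in AL rats 61, 71 and 88 and 11.8, 13.5 and 19.4 CPM in HD rats 64, 67 and 69 (log2 fold change -1.19, edgeR, adjusted *P* = 0.406, and -0.78 without rat 71). Ptprc, which encodes the leukocyte antigen CD45, did not overlap between the groups, with 7.15 to 17.3 CPM in AL and 2.80 to 4.96 CPM in HD. The 15 T and NK lymphocyte markers found summed to between 11.5 and 23.0 CPM in AL and between 3.90 and 5.56 CPM in HD, with Klrb1 at 0 in every rat. The part of these cells in the receptor levels was not tested.

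Set against the macrophage marker Csf1r, the members differed from one another. The ratio of Tlr7 to Csf1r in CPM was 0.0478, 0.0598 and 0.0552 in AL rats 61, 71 and 88. In HD rats 64, 67 and 69 the ratio was 0.0216, 0.0296 and 0.0347, below every AL rat. Tlr7 had counts of only 3, 8 and 21 in these HD rats, and Csf1r was the only marker used as a divisor. The ratio of Cd14 to Csf1r was 0.220, 0.143 and 0.112 in AL and 0.309, 0.219 and 0.215 in HD. For Tlr2, the ratios of 0.0670, 0.0924 and 0.0419 in AL and 0.108, 0.0667 and 0.0941 in HD overlapped. Myd88 had 1.72, 0.524 and 0.790 times the CPM of Csf1r in AL and 2.02, 2.17 and 1.22 times in HD. AL rat 61, with the lowest Csf1r of its group, had the highest ratio of its group for Cd14 and Myd88. These ratios describe the libraries and were not tested.

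The summed markers of some other cells were higher in HD. Those of neutrophils, which also carry Tlr2, Tlr4 and Cd14, had a sum of 3.26 to 5.54 CPM in the AL rats and 18.0 to 39.2 CPM in the HD rats. Most of the HD sum came from Mmp9 (10.2, 14.7 and 32.3 CPM in HD rats 64, 67 and 69, a gene chosen after its values were seen), while Prtn3 was at 0 in every rat. Only 3 of the 13 neutrophil markers were tested, all 3 higher in HD. An unadjusted *P* value under 0.05 (edgeR) was reached by 1 of them, beside 4.66% of all tested genes. S100a9 overlapped between the groups, with 0.238, 0.776 and 0.596 CPM in AL rats 61, 71 and 88. In HD rats 64, 67 and 69 S100a9 had 4.67, 0.700 and 0.384 CPM, so only rat 64 lay above the AL rats. Podocyte markers summed to between 117 and 238 CPM in AL and between 301 and 621 CPM in HD. Endothelial markers overlapped, with 412 to 679 CPM in AL and 252 to 567 CPM in HD. The summed dendritic cell markers also overlapped, with 206 to 316 CPM in AL and 121 to 273 CPM in HD. However, all 6 tested markers of that list were lower in HD, with a median log2 fold change of -1.15 and of -0.60 without rat 71. Of them, 2 had an unadjusted *P* value under 0.05, beside 5.94% of all tested genes in that direction. B lymphocyte markers overlapped in sum, with 25.3 to 32.9 CPM in AL and 21.7 to 30.9 CPM in HD. The part of these cells in the receptor levels was not tested either.

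**Figure D5:**
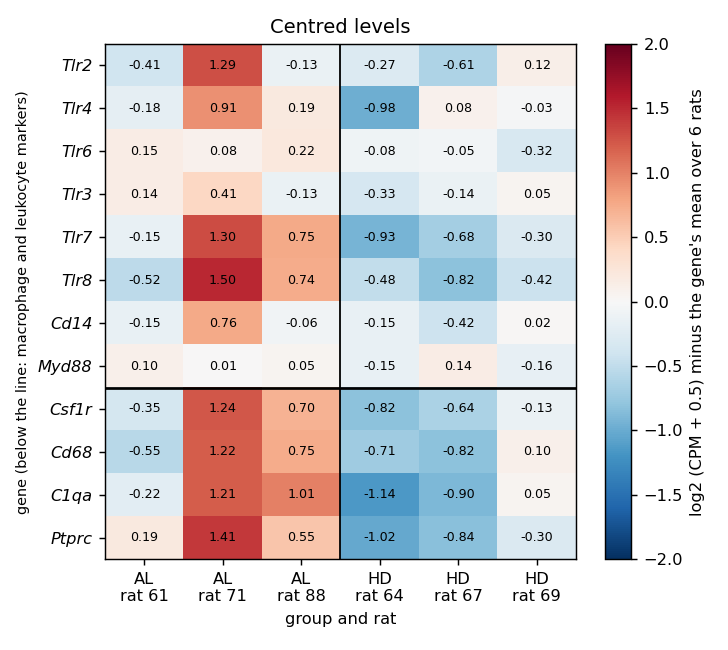
Log2 (CPM + 0.5) of each tested gene minus its mean over the 6 rats, with rats in columns (AL left, HD right) and genes in rows, red above and blue below the mean, and 4 macrophage and leukocyte markers under the black line. AL rat 71 is red for Tlr2, Tlr4, Tlr3, Tlr7, Tlr8, Cd14 and all 4 markers, and the rows of Tlr6 and Myd88 are pale.

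The genes with the most similar profile over the 6 rats were found by the mean absolute difference between centred log2 values. For Tlr2 this was Itgam, the integrin alpha chain of myeloid cells, with a mean difference of 0.118, followed by Cst6 with 0.133. For Tlr4 it was Dok3, an adaptor of immune cells, with 0.0620, followed by Cyyr1 with 0.110. For Tlr8 it was P2ry12, a nucleotide receptor known from platelets and microglia, with 0.140, and then Alox15b with 0.143. Tlr7 was nearest to LOC100910940 (0.0921) and Slco2b1 (0.0958). The abundant members were nearest to other genes, Tlr6 to Giot1 (0.0327) and Taf1 (0.0367), Tlr3 to Rhbdl2 (0.0439) and Myadml2 (0.0451), Cd14 to Irs2 (0.0727) and Prickle2 (0.0842), and Myd88 to Stip1 (0.0174) and Oplah (0.0220). Flat profiles give small differences, so these values are not to be ranked between members.

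Around the receptors, the lists of pathway genes held 115 tested genes besides the members, of which 23 were lower and 3 higher in HD at an unadjusted *P* value under 0.05, and 0 passed the adjusted threshold in edgeR. With DESeq2, 8 of the 115 passed it, beside 1.58% of all tested genes, among them Cd180 (adjusted *P* = 0.00378), Dcn (0.00881), Cxcl10 (0.0159), Fn1 (0.0220), Ctss (0.0271) and Vcam1 (0.0272). The median log2 fold change of the 115 genes was -0.19. Some genes, such as Dcn, Itgam and S100a9, stand in both a pathway list and a list of cell markers. In all tested genes, 5.94% were lower and 4.66% higher at the same unadjusted threshold. Without rat 71, 21 of the 115 were lower and 4 higher, every pathway gene named here with a fold change kept its direction, and Ctsl1, Map3k8, Irf1, Irf5 and Tnc no longer had an unadjusted *P* value under 0.05.

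Of the 18 tested co-receptors, chaperones and accessory proteins, 3 were lower and 1 higher at that threshold. Cd180, a Toll-like receptor homolog of B cells and macrophages that restrains Tlr4, had 5.54 ± 3.63 CPM in AL and 0.703 ± 0.392 CPM in HD (SD, n = 3), with a log2 fold change of -2.89 (SE 0.67, edgeR, adjusted *P* = 0.368). Ctss and Ctsk, lysosomal cathepsins of the kind that cleave endosomal receptors into their active form, had log2 fold changes of -1.21 and -1.27, both with an adjusted *P* value of 0.398 in edgeR. Ctsl1, the abundant cathepsin L, was at 1606 CPM in AL and 2246 CPM in HD (log2 fold change 0.48). The cathepsins of this list therefore lay on both sides of 0.

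Among the 24 tested adaptors and kinases between the receptors and the nucleus, 1 was lower and 0 were higher at an unadjusted *P* value under 0.05, beside the 10.6% of all tested genes in either direction. It was Map3k8, the kinase that leads to ERK (log2 fold change -0.67, edgeR, adjusted *P* = 0.455). The median of the list was -0.07, beside -0.11 for Myd88. Of the 13 tested transcription factors, 4 were lower and 1 higher at that threshold, and 1 was lower and 1 higher without rat 71. Irf7, which induces type I interferons after Tlr7 and Tlr9, had 32.6, 33.2 and 96.9 CPM in AL rats 61, 71 and 88 and 18.6, 29.9 and 22.3 CPM in HD rats 64, 67 and 69. The groups did not overlap in Irf7, with a log2 fold change of -1.20 (SE 0.44, edgeR, adjusted *P* = 0.419). Irf1 (-0.62) and Irf5 (3.03 ± 1.15 CPM in AL and 1.52 ± 0.0835 CPM in HD) were lower as well, whereas Jun, a component of AP-1, was higher (0.65, with 182 ± 22.8 CPM in AL and 286 ± 54.8 CPM in HD).

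The 20 tested negative regulators had a median of 0.02, with Nfkbiz (-0.84) lower and Tnip1 (0.56), which binds A20, higher at an unadjusted *P* value under 0.05. Of the 15 tested endogenous ligands, 4 were lower and 0 higher. The named genes among them were Dcn (-1.35), Fn1 (-1.59), Vcan (-1.59) and Tnc (-2.33), which encode matrix proteins of connective tissue and are also known as Tlr2 or Tlr4 ligands. Of the 10 markers of fibroblasts and smooth muscle, which include Dcn, 7 were lower in HD, beside 48.7% of all tested genes. Of these, 3 had an unadjusted *P* value under 0.05 in edgeR, beside 5.94% of all tested genes in that direction. The median log2 fold change of these markers was -0.63, and -0.22 without rat 71. Their sum overlapped, with 232 to 586 CPM in AL and 158 to 495 CPM in HD, and the part of these cells was not tested.

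Of the 40 listed genes that Toll-like receptor signals induce, 22 could be tested, since cytokine genes such as Tnf, Il6, Il10 and Ifnb1 did not reach a count of 30 in any rat. In these 22 genes, 10 were lower and 0 higher at an unadjusted *P* value under 0.05, beside 5.94% and 4.66% of all tested genes. The groups did not overlap in 8 of the 22, all lower in HD, beside 7.01% of all tested genes. The 10 include the interferon-induced genes Gbp2, Ifit2, Ifit3, Mx1 and Isg15, whereas Il1b, Cxcl1, Ccl20 and Sod2 did not reach the unadjusted threshold. The list had a median log2 fold change of -0.75, and it was also -0.75 without rat 71. Cxcl10, an interferon-induced chemokine, had 25.9, 19.5 and 19.8 CPM in AL rats 61, 71 and 88 and 11.6, 11.4 and 13.9 CPM in HD rats 64, 67 and 69. Every HD rat was below every AL rat, and the log2 fold change was -0.81 (SE 0.17, edgeR, adjusted *P* = 0.368, and -0.88 without rat 71). The chemokine Ccl5 (-1.70) and the adhesion molecules Icam1 (-0.52) and Vcam1 (-1.34) were also lower. Icam1 was 15.4, 15.6 and 15.6 CPM in the HD rats against 20.0, 23.2 and 23.6 CPM in the AL rats, so rat 71 did not stand apart in it. The leukocyte marker sums given for the receptors apply to these genes too, and their part was not tested.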

How the data were processed

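Kidney RNA of 6 rats was sequenced as single-end reads from a kit that does not mark the strand, with 1 library per rat and no pooling. The authors quantified transcripts with RSEM 1.1.15 against gene definitions for genome build rn5, and deposited for each transcript an estimated count without normalization. The authors also deposited TPM, scaled to transcript length and library size, which was used here only to compare levels between genes. A posterior mean count entered 1 alternative, and FPKM was not used. Filters on reads before RSEM are not given in the sources used here.

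Counts were summed per gene and rounded. A gene was tested if its count reached 30 in 1 rat or more, following the study's methods. Groups came from the diet in the labels. Quasi-likelihood tests were run in edgeR 4.0.16 (R 4.3.3, TMM) over all 11553 genes, with diet as the only factor and Benjamini-Hochberg adjustment at 0.05. The standard error was the absolute log2 fold change over the square root of F. DESeq2 1.42.0, robust edgeR, other normalizations, filters and pseudocounts, limma 3.58.1 on log2 (TPM + 0.1) and leaving out each rat were alternatives. Exact permutation tests (10 divisions of the rats) used log2 (CPM + 0.5) and cannot go below *P* = 0.1. The fit was tested on simulated data with known answers. With total counts between 12499945 and 30466461, genes under 1 CPM rest on few counts, and depth differed between rats.

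The named genes are every member, from each pathway list up to 4 genes with the smallest unadjusted *P* values under 0.05, the 2 genes nearest in profile to each tested member, and fixed tissue markers. Tlr1, Ly96, Mmp9, S100a9, markers at 0 and the cytokine genes listed as untested were named after their values were seen. So were Gbp2, Ifit2, Ifit3, Mx1, Isg15, Il1b, Cxcl1, Ccl20 and Sod2. The members and lists were chosen with earlier results of these data known. The *P* values set the difference between the diets against the spread between the rats sequenced. In edgeR the estimate of that spread also draws on the other tested genes. Promoter sequences came from RefSeq (GRCr8), a build other than that of the files, so no coordinates were exchanged between them.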

Additional observations from a re-analysis of the deposited data

How the results depend on the processing

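No paired analysis was possible because the groups hold different rats and the labels give them no shared replicate numbers. The number of genes past an adjusted *P* value of 0.05 was 0 in edgeR, 182 with DESeq2, 2 without the count minimum and between 0 and 4 when each rat was left out. The number of members at an unadjusted *P* value under 0.05 was 2, and between 0 and 2 when each rat was left out. It was 0 when all 6 rats had to reach a count of 10, which removes Tlr4, Tlr7 and Tlr8. With scaling to library size alone it was 3, as Tlr6 joined (edgeR, unadjusted *P* = 0.0257). With limma on log2 TPM the number was 2, but for Tlr6 and Tlr7 (unadjusted *P* = 0.0478 and 0.0307). It was 0 without rat 71, in edgeR and with DESeq2 (the latter chosen after seeing the data), and 1 without rat 67. The log2 fold change of Tlr2 was -0.86, between -1.20 and 0.062 when each rat was left out (0.062 without rat 71), and 0.050 with DESeq2 without rat 71. The causes were not tested. The surface minus endosomal difference of 0.43 was 0.71 with a pseudocount of 0.1, 0.17 with 2 and between 0.36 and 0.55 when each rat was left out. The count of genes of all pathway lists at the unadjusted threshold was 26, and between 18 and 36 when each rat was left out. The count of all genes at that threshold was 1224, but 605 without rat 88 and 640 without rat 64. Of the other values, 115 fold changes of single members kept their direction and did not pass the adjusted threshold. Some moved in size, as Cd14 did from -0.47 to -0.07 without rat 71. Some crossed an unadjusted *P* value of 0.05, as Tlr7 and Tlr8 did without rat 71. The 41 other values of the comparisons were within the range set for no change. Counts under 30 limit Tlr5 and Tlr9, and low counts limit Tlr2, Tlr4, Tlr7 and Tlr8 in the shallower libraries.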
